A study of Mus musculus with 8 samples.

Results

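Gene expression in the liver of F3 females was compared with that of F1 females at day 456 of age, in 2 pairs of arrays matched by diet. The comparison used 4 of the 8 arrays of the series, chosen by their titles: F1 and F3 with 5% corn oil (w/w) in the diet, and F1 and F3 with 21% corn oil. All were C57/BL6 mice, and total RNA of the liver was taken after a 6 h fast. The other 4 arrays held the same combinations at day 90 and were used only where an age is named. Each combination of generation, diet and age was measured on 1 array, so each diet pair is 1 array against 1 array. The labels left unsaid how many animals gave RNA to an array, how the F3 generation was bred, and which generation ate the diets and when. Differences are F3 minus F1 in log2 intensity, so that a difference of -1 is a halved intensity, and no value had its background subtracted, which makes differences of dim genes too small. A gene was called the same way in both pairs when it differed by at least 0.5 in both, in one diet only when it differed by at least 1 in that pair and by less than 0.25 in the other, and opposite when it differed by at least 0.5 in both with unlike signs.

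The liver makes fatty acids from acetyl-CoA when food is plentiful, through ATP citrate lyase, acetyl-CoA carboxylase, fatty acid synthase and elongases, with NADPH from malic enzyme. The transcription factors SREBP-1c and ChREBP drive these genes after feeding, and polyunsaturated fat in the diet lowers them. The same organ secretes acute phase proteins in response to cytokines, and runs a circadian clock whose output genes rise and fall through each day.

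Most of the 8945 genes measured differed little between the generations. The median difference was 0.0033 in the 5% pair and 0.0017 in the 21% pair, and the standard deviation over genes was 0.133 and 0.197. In the 5% pair 43 genes were at least 0.5 higher in F3 (0.481% of genes) and 39 lower (0.436%). In the 21% pair 73 were higher (0.816%) and 165 lower (1.84%). By any size, 51.8% of genes were higher and 48.2% lower in the 5% pair, and 50.5% and 49.5% in the 21% pair. In both pairs 25.6% were lower and 27.9% higher. Across genes the differences of the 2 pairs had a correlation of 0.0921, which describes these arrays only, since genes are not independent replicates. By limma, with diet as a term, 0 genes passed at day 456 (0% of 8945), with 444 at an unadjusted p below 0.05 and a smallest adjusted p of 0.565. That fit had 1 residual degree of freedom and a median standard error of 0.087, and the number of arrays limited its precision. That 1 degree of freedom is the disagreement between the 5% and the 21% pair, which limma moderates with the spread over genes. The p-values and standard errors of this fit thus measure how alike the 2 pairs were. Genes named for differing the same way in both pairs were picked on that likeness. The disagreement may be technical, and the p-values do not rest on a known number of animals. A fit to all 8 arrays also passed 0 genes, and passed 3 (Gkn3, Prap1 and Pla2g4f) when the F1 array of day 456 with 21% corn oil was left out. Gkn3 and Prap1 lay above the filter bound in the F1 array with 5% corn oil alone, so their calls restate that array. With all 4 arrays of day 456, no difference named here passed a test, and "higher" and "lower" describe the arrays.

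**Figure D1:**
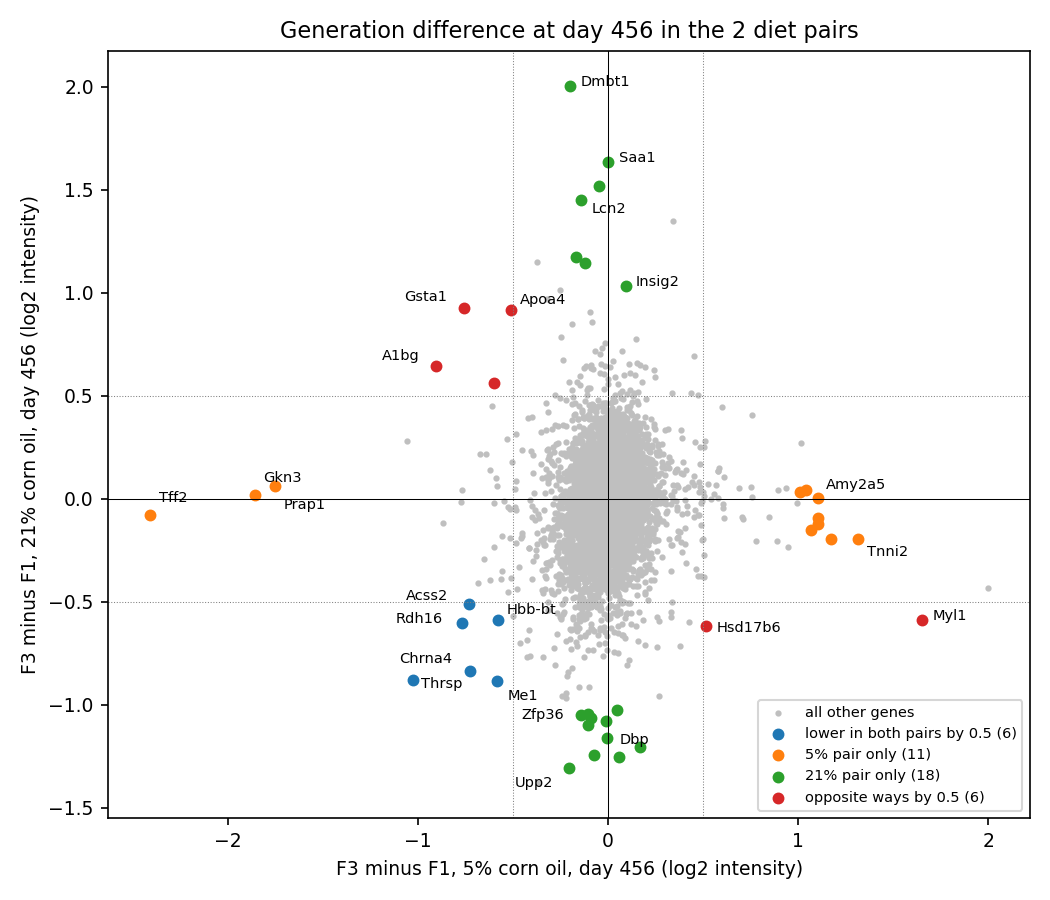
Each point is 1 of 8945 genes, with the log2 difference F3 minus F1 at day 456 in the 5% corn oil pair on the horizontal axis and in the 21% pair on the vertical axis. The 6 genes past 0.5 in both pairs all lie at the lower left and 0 lie at the upper right. Dotted lines stand at -0.5 and 0.5.

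Liver markers were at like levels in all 4 arrays, at 14.55 to 14.60 for transthyretin (Ttr) and 14.76 to 14.84 for transferrin (Trf), while the albumin probe (Alb) was dim, at 8.09 to 8.43. Transcripts of other tissues were present in both arrays of the 5% diet. Over all markers with a probe, with no filter on dim probes, 35 markers of pancreatic acinar cells had a median log2 intensity of 8.87 in F1 and 9.31 in F3 with 5% corn oil, against 6.88 and 6.90 with 21%. The median of 25 skeletal muscle markers was 7.37 in F3 with 5% corn oil and 6.97 to 7.06 in the other 3 arrays of day 456. The 22 markers of stomach and intestine had medians of 6.84 to 6.95 in the 4 arrays. A few of them, given with the 5% pair, were high in F1 or in both arrays with 5% corn oil. The 14 pancreatic islet markers had medians of 6.84 to 6.86, and none passed the filter, a mean above 6.95. In bulk tissue, fewer cells of a type and less RNA per cell cannot be told apart. The mean correlation of each day 456 array with the other 7 was 0.986 to 0.990. The array that stood apart, F1 with 5% corn oil at day 90 (0.977), is not part of the day 456 comparison. It does enter every day 90 difference with 5% corn oil and the test between ages. In that day 90 pair 624 genes differed by at least 0.5, beside 118 in the 21% pair of day 90.

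**Figure D2:**
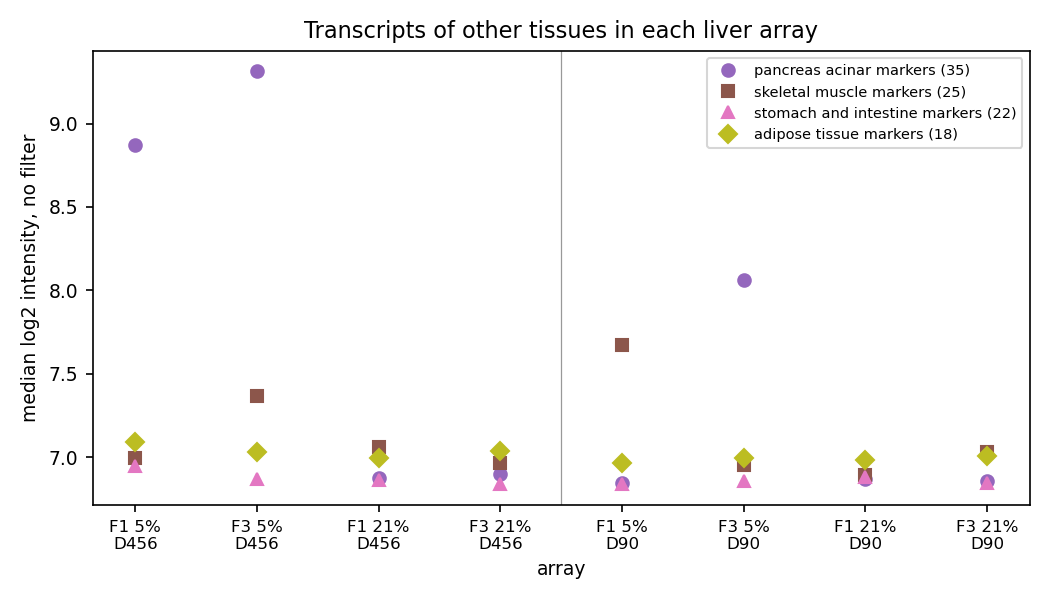
Median log2 intensity of 4 lists of markers of other tissues in each of the 8 arrays, 1 point a list and array, over all markers with a probe (their number in brackets) and with no filter on dim probes. Pancreas markers stand at 8.87 and 9.31 in the 5% arrays of day 456 and at 6.88 and 6.90 in the 21% arrays.

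Lower in F3 in both diet pairs by at least 0.5 were 6 genes (0.0671% of genes), and 0 genes (0%) were higher in both. Of the 6, 3 encode proteins of fatty acid synthesis. Thrsp encodes Spot 14, a small nuclear protein that rises when the liver makes fat. Its log2 intensity was 12.32 in F1 and 11.29 in F3 with 5% corn oil, and 11.33 in F1 and 10.45 in F3 with 21%. Thrsp was thus 2.04-fold lower in F3 in the 5% pair and 1.84-fold lower in the 21% pair. Across the diets, the F1 array with 21% corn oil (11.33) stood nearly level with the F3 array with 5% (11.29). The mean difference was -0.95 ± 0.10 (SE, n = 2 arrays a generation, 1 of each diet, adjusted p = 0.565 by limma). At day 90 Thrsp was higher in F3, by 0.57 in each pair, and the difference between the ages was -1.53 ± 0.35 (adjusted p = 0.996 by limma).

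Me1, the cytosolic malic enzyme that supplies NADPH for fatty acid synthesis, was at 10.44 in F1 and 9.86 in F3 with 5% corn oil, and at 10.35 and 9.46 with 21%. The F1 arrays did not overlap with the F3 arrays, and the gene was 1.5-fold and 1.85-fold lower in F3. A second probe of Me1 gave -0.57 and -0.80, close to the -0.59 and -0.89 of the brighter one. Acss2, the cytosolic enzyme that makes acetyl-CoA from acetate, was at 13.05 in F1 and 12.31 in F3 with 5% corn oil, and at 12.31 and 11.80 with 21%. Here the F3 array with 5% corn oil stood level with the F1 array with 21%, so the order holds only within each diet. The second, dimmer probe of Acss2 gave -0.56 in the 5% pair and +0.14 in the 21% pair.

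The stretches of 250 bases upstream of Thrsp and Acss2 are shown as examples from one pathway that were lower in both pairs. Me1, of the same pathway, is not shown. They come from RefSeq (GRCm38.p6), read 5′ to 3′ on the gene's strand, at chr7:97417551-97417800 (minus strand) for Thrsp and chr2:155517793-155518042 (plus strand) for Acss2. Capitals mark CCAAT or its reverse complement ATTGG, the box that the factor NF-Y binds.
Thrsp: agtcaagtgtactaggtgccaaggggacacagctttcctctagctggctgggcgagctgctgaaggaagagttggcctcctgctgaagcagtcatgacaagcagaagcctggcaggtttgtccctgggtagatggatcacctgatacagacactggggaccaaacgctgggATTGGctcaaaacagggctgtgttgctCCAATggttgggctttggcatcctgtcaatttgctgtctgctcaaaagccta
Acss2: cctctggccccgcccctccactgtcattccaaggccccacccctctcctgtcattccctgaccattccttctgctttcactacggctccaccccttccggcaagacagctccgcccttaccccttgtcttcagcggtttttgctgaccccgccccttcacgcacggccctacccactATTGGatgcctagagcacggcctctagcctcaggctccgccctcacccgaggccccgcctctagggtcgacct
Of the other genes lower by 0.3 in both pairs on the list, Acly, Elovl6, Acaca and Aacs held no such letters in this window, and Me1 held them at 1 of its 2 starts. The E-box (CACGTG), sterol element (TCACCCCAC), TATA box (TATAAA) and C/EBP site (TTGCACAAT) were also searched for. The windows of Thrsp, Acss2, Me1, Acly, Elovl6, Acaca and Aacs held none of them. On both strands, the box stood in 33.8% of 32851 upstream stretches of this length, so a match is common and describes the letters only.

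The other 3 genes lower in both pairs belong to other processes. Chrna4, which encodes a subunit of the nicotinic acetylcholine receptor, was at 8.72 in F1 and 7.995 in F3 with 5% corn oil, and at 8.01 and 7.17 with 21%. Its second probe gave -0.61 and -0.64, beside -0.72 and -0.84 for the brighter one, and its adjusted p was 0.565 by limma. Rdh16, a retinol dehydrogenase, was at 10.42 and 9.66 with 5% corn oil and at 9.96 and 9.36 with 21%, 1.70-fold and 1.52-fold lower in F3, with no overlap between the generations. For Chrna4 the F1 array with 21% corn oil (8.01) stood nearly level with the F3 array with 5% (7.995). These genes were picked for being lower within each pair, and how many of all genes had no overlap was not counted. Hbb-bt, an adult beta-globin gene of red blood cells, was at 11.39 and 10.81 with 5% corn oil and at 11.26 and 10.68 with 21%. Its differences of -0.58 and -0.59 were nearly equal, and both F1 arrays lay above both F3 arrays. For Rdh16, Me1, Hbb-bt and Acss2 the adjusted p was 0.860 by limma.

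**Figure D3:**
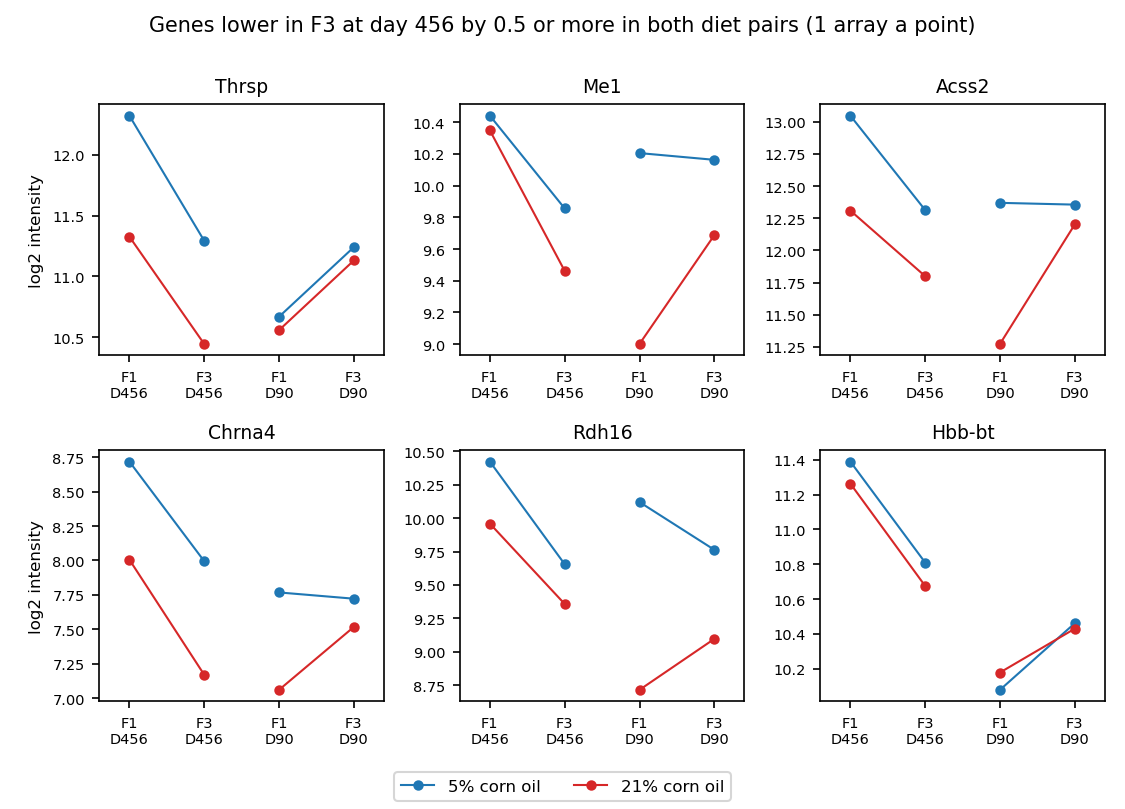
Log2 intensity of the 6 genes lower in F3 in both pairs at day 456, 1 array a point, with lines joining F1 to F3 within a diet and age. At day 456 every line goes down. At day 90 all 6 genes go up in the 21% pair, and Thrsp and Hbb-bt also in the 5% pair.

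At day 90 none of the 6 was lower in F3 in both pairs. In the 21% pair of that age all 6 were higher in F3, by 0.25 (Hbb-bt) to 0.93 (Acss2). In the 5% pair of that age Thrsp and Hbb-bt were higher by 0.57 and 0.38, Rdh16 was lower by a difference of -0.36, and the other 3 differed by -0.05 to -0.01. Day 90 pairs share no array with the day 456 pairs. Over all 8945 genes the same minimum called 16 higher in both pairs and 6 lower in both at day 90, beside 0 and 6 at day 456. The 5% pair of day 90 holds the array that stood apart.

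Red blood cell markers (8 of 19 measured) had medians of -0.11 in the 5% pair and -0.12 in the 21% pair, and 5 of 8 were lower in both (25.6% over all genes). Alas2, the enzyme that starts haem synthesis in red cell precursors, was lower by -0.38 and -0.28, and the alpha-globin gene Hba-a1 by -0.07 and -0.14. Their part in the Hbb-bt difference was not tested. Hbb-bt has near-identical neighbours in the globin cluster, so its probe may read more than 1 gene.

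Just inside the minimum stood Acss2, at -0.51 in the 21% pair, and Hbb-bt, at -0.58 in the 5% pair. Just outside stood Gpcpd1, a phosphodiesterase of phospholipid turnover (-0.498 and -0.57), Serpina6, the corticosteroid-binding globulin of plasma (-0.47 and -0.70), and Lss, the lanosterol synthase of cholesterol synthesis (-0.53 and -0.45). A second, dimmer probe of Gpcpd1 gave -0.28 in the 5% pair and +0.08 in the 21% pair. Serpina6 was at 12.42 and 11.96 with 5% corn oil and at 12.25 and 11.56 with 21%.

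With the minimum lowered to 0.3, 37 genes were lower in both pairs (0.414% of genes) and 10 were higher in both (0.112%). Among the 24 measured members of the fatty acid and triglyceride synthesis list (of 26), 16 were lower in both pairs by any size (25.6% over all genes), 2 were higher in both (27.9%), and 7 were lower by 0.3 in both. The list median was -0.12 in the 5% pair and -0.27 in the 21% pair, beside medians near 0 over all genes. Beyond Thrsp, Me1 and Acss2, the 7 comprised Acly, Elovl6, Aacs and Acaca.

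Acly, the ATP citrate lyase that makes acetyl-CoA from citrate, was at 13.21 in F1 and 12.78 in F3 with 5% corn oil, and at 12.97 and 12.21 with 21%. Acaca, the acetyl-CoA carboxylase that commits acetyl-CoA to fatty acids, was at 11.30 and 10.90, and at 10.71 and 10.32. Elovl6, which extends palmitate to stearate, was at 11.60 and 10.92, and at 10.38 and 9.97. For Acaca and Elovl6 both 5% arrays lay above both 21% arrays, so the diets were farther apart than the generations. Aacs, which makes acetoacetyl-CoA from ketone bodies for lipid synthesis, was at 10.41 and 9.84, and at 10.06 and 9.67.

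No other member of the list was lower by 0.3 in both pairs, though some, such as Scd1 and Fasn, were lower in both by any size. Scd1, the desaturase that makes oleate, differed by -0.15 in the 5% pair and -0.49 in the 21% pair. Srebf1, the gene of SREBP-1, differed by +0.06 and -0.50, and Mlxipl, the gene of ChREBP, by +0.06 and -0.39. Fasn, the fatty acid synthase, had a dim probe at 7.09 to 7.36 and differed by -0.27 and -0.13. Agpat2, which acylates lysophosphatidic acid, was higher in F3 in the 21% pair, by 0.60, and at -0.02 in the 5% pair. By limma 10 of the 24 members had an unadjusted p below 0.05, beside 444 of all 8945 genes, and 0 passed over all genes. These p-values measure how alike the pairs were. The list was chosen with earlier results of these data known, so the counts are no independent test of it. Adipose tissue markers (11 of 19 measured, with Scd1 and Fasn on both lists) had medians of -0.06 and +0.04 over the 5% and the 21% pair. Adipoq, the hormone adiponectin of fat cells, was lower in F3 in both pairs, at 7.76 and 7.47 with 5% corn oil and at 7.46 and 7.30 with 21%, and higher at day 90, by 0.21 and 0.09. Of the 11 markers 4 were lower in both pairs (25.6% over all genes) and 2 higher in both (27.9%). The 2 were Pparg (+0.19 and +0.20) and Car3 (+0.07 and +0.05). The part of fat tissue in the lipid synthesis differences was not tested.

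Of the 18 measured members of the cholesterol synthesis and uptake list (of 24), 13 were lower in both pairs by any size (25.6% over all genes), 0 were higher in both and 0 passed 0.5 in both. The medians were -0.18 and -0.22. Besides Lss, the mevalonate enzyme Mvd was lower by 0.3 in both pairs, with log2 intensities of 8.89 and 8.42 with 5% corn oil and of 8.78 and 8.44 with 21%. Fdps, the farnesyl diphosphate synthase, stood at 13.00 in F1 with 5% corn oil and at 12.39 to 12.42 in the other 3 arrays, so its difference of -0.60 rests on that array. Dhcr7, which makes cholesterol in the last step, differed by -0.56 and -0.18. Insig1, which holds the SREBP complex in the ER, differed by -0.13 and -0.77 in its brightest probe, but another of its probes gave -0.29 and +0.21. In the 21% pair 4 of the 18 were higher in F3 and 14 lower (50.5% and 49.5% over all genes). Among the 4 were Nsdhl (-0.40 in the 5% pair and +0.39 in the 21% pair) and Cyp51 (-0.04 and +0.33). By limma 0 of the 18 passed over all genes. In both lists the day 90 pairs had medians above 0, of 0.03 (5%) and 0.13 (21%) for fatty acid synthesis and of 0.12 and 0.27 for cholesterol.

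The 10 genes higher in F3 in both pairs by at least 0.3 are named here after their values were seen. Ppp1r3c, which targets protein phosphatase 1 to glycogen, was at 10.12 and 10.59 with 5% corn oil and at 10.35 and 10.85 with 21%. Csad, the decarboxylase of taurine synthesis, was at 9.20 and 9.96, and at 10.08 and 10.49. It was higher in F3 at day 90 as well, by 1.12 and 0.67. Spon2, a secreted matrix protein, differed by +0.45 and +0.69, and Slc25a33, a mitochondrial carrier of pyrimidine nucleotides, by +0.60 and +0.45. The others were Gm4952 (+0.44 and +0.51), Creld2 (+0.34 and +0.51), Osgin1 (+0.32 and +0.34), Actn4 (+0.30 and +0.33), Ap2b1 (+0.38 and +0.33) and the pancreas marker Reg1 (+0.34 and +1.35). A second probe of Creld2, an ER stress protein, gave +0.29 and +0.32, while the other kept probes of Ap2b1 lay between -0.08 and +0.02.

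With 21% corn oil only, 7 genes were higher in F3 (0.0783% of genes) and 11 lower (0.123%). Among the higher genes were 3 of the acute phase response. Saa1, which encodes a serum amyloid A that the liver secretes in inflammation, was at 7.54 in F1 and 7.54 in F3 with 5% corn oil, and at 7.45 in F1 and 9.08 in F3 with 21%. Saa2, its neighbour gene, was at 7.46 and 7.41, and at 7.24 and 8.75. Lcn2, lipocalin 2, a siderophore-binding protein of hepatocytes and neutrophils, was at 10.90 and 10.76, and at 10.44 and 11.89. In each of the 3 genes 1 array, F3 with 21% corn oil, stood above the other 3, by 2.73-fold (Lcn2) to 3.10-fold (Saa1) over its F1 partner.

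The upstream 250 bases of Saa1 and Saa2 are shown because the genes gave like values. They are from RefSeq (GRCm38.p6), 5′ to 3′ on the gene's strand, at chr7:46742981-46743230 (minus strand) for Saa1 and chr7:46751583-46751832 (plus strand) for Saa2. Capitals mark TTGCACAAT, a site of the C/EBP factors, which act in the acute phase response.
Saa1: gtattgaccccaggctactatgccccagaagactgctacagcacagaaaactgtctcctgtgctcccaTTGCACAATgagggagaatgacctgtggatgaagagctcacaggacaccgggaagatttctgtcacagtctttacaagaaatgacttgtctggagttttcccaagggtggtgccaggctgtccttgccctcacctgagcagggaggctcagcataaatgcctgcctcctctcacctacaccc
Saa2: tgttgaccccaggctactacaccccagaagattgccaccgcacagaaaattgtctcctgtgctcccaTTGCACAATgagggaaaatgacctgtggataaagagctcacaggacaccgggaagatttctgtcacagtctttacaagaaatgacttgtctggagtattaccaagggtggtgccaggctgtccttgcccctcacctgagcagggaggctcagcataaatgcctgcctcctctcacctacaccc
The stretches were identical in 238 of 251 aligned columns (94.8%), and the letters marked, on either strand, stood in 56 of 32851 upstream stretches (0.17%). The windows of Lcn2 and Orm2, acute phase genes also higher in F3 with 21% corn oil, did not hold these letters. The genes Saa1 and Saa2 are close copies of each other, so whether their probes tell them apart is uncertain.

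The whole acute phase list (28 of 32 measured) had medians of -0.03 in the 5% pair and +0.12 in the 21% pair. In the 21% pair 19 of 28 were higher in F3 (50.5% over all genes) and 4 were higher by 0.5 (0.816%). The 4th, beside Saa1, Saa2 and Lcn2, was Orm2, an orosomucoid, at 11.23 and 11.14 with 5% corn oil and at 10.85 and 11.76 with 21%. Saa3, which is made mainly outside hepatocytes, differed by -0.09 in the 21% pair, and the bright plasma protein genes Hp, Hpx and Fga by +0.10 to +0.15. At day 90 the 21% pair went the other way, with differences of -2.16 for Saa1, -2.09 for Saa2, -2.82 for Lcn2 and -2.48 for Orm2. Neutrophil markers (14 of 22 measured) had medians of -0.01 and +0.08, and Prtn3, a neutrophil protease, differed by -0.19 and +0.85. Their part in the Lcn2 difference was not tested.

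**Figure D4:**
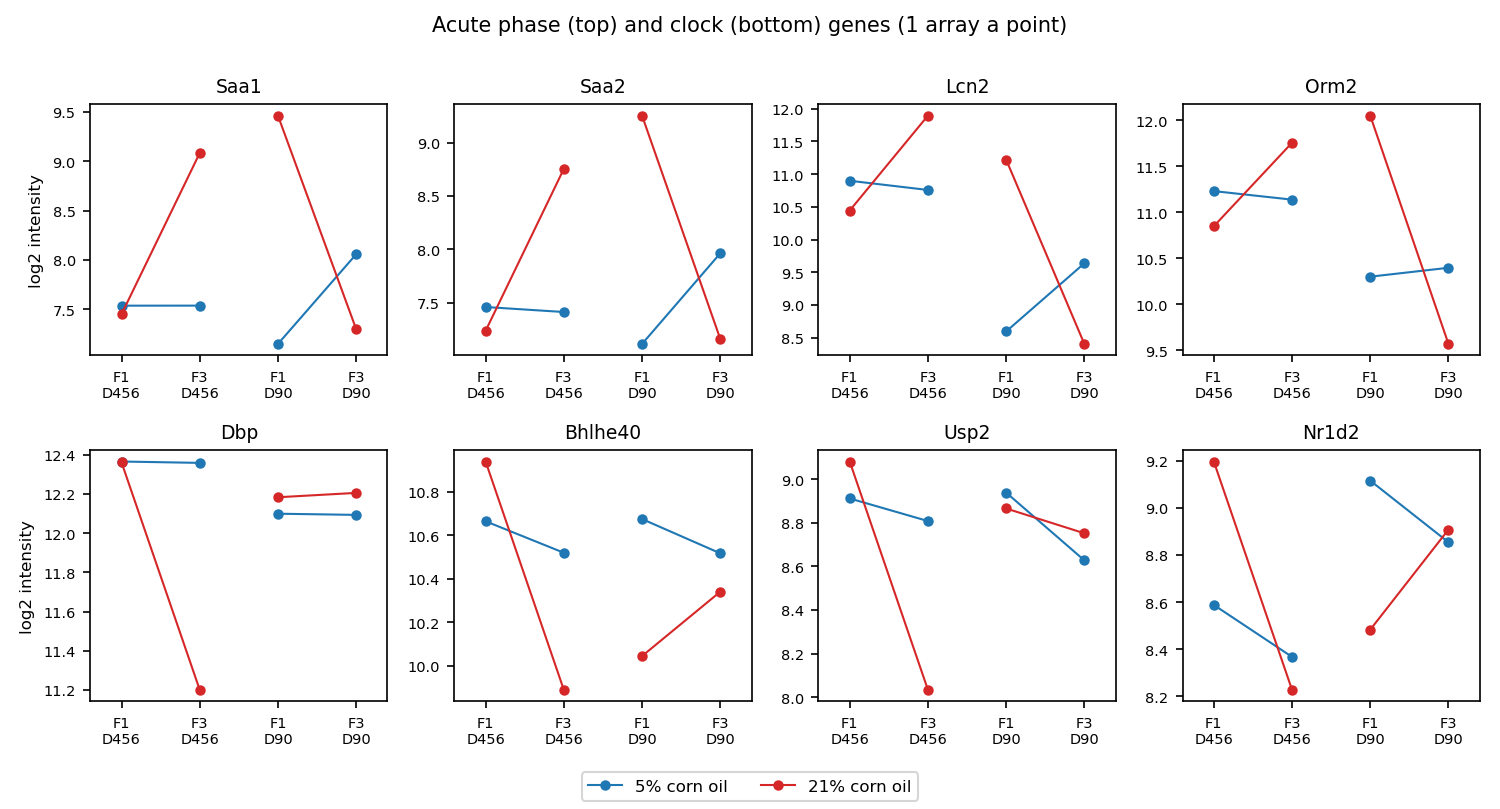
Log2 intensity of 4 acute phase genes (top) and 4 clock and output genes (bottom), 1 array a point, with lines joining F1 to F3 within a diet and age. At day 456 the 5% pairs differ by -0.22 to 0.00, and the F3 array with 21% corn oil stands above the other 3 for the acute phase genes and below them for the clock genes.

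The other genes higher with 21% corn oil only were Dmbt1, Rpl7a, Tubb2b and Insig2. Dmbt1, which encodes a secreted mucosal scavenger receptor protein, was at 8.93 and 8.73 with 5% corn oil and at 7.75 and 9.75 with 21%, a difference of 2.01 in which the F1 array was the lowest of the 4 and the F3 array the highest. Insig2, a relative of Insig1 that rises in fasting, was at 11.21 and 11.30, and at 10.72 and 11.75. Its other probes gave +0.88 and +1.45 in the 21% pair. Rpl7a, a ribosomal protein gene with many processed copies in the genome, was at 10.27 and 10.10, and at 9.60 and 10.77. Tubb2b, a beta-tubulin gene, differed by +1.14 in its bright probe, while its other 2 kept probes gave +0.08 and -0.07.

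Genes lower in F3 with 21% corn oil only included 3 of the circadian clock and its outputs. Dbp, a transcription factor whose RNA swings with the day, was at 12.37 and 12.36 with 5% corn oil, and at 12.36 in F1 and 11.20 in F3 with 21%. Bhlhe40, a repressor of the clock, was at 10.66 and 10.52, and at 10.94 and 9.89. Usp2, a clock-controlled ubiquitin protease, was at 8.91 and 8.81, and at 9.08 and 8.03. As with the acute phase genes, F3 with 21% corn oil was the array that differed, here below the other 3, and the folds were 2.07 to 2.23 within the pair.

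Across the clock list (17 of 24 measured) the median was 0.01 in the 5% pair and -0.32 in the 21% pair. In the 21% pair 13 of 17 were lower (49.5% over all genes), 7 by 0.5 or more (1.84%). In the 5% pair 8 of 17 were lower (48.2% over all genes) and 0 by 0.5 (0.436%). With background subtracted the median in the 21% pair was -0.87. Besides Dbp, Bhlhe40 and Usp2, those 7 were Nr1d2, a REV-ERB receptor (-0.97), Tef, a factor related to Dbp (-0.75), Per2, a core repressor (-0.64), and Nampt, the enzyme of NAD salvage (-0.56). On the other side, Nfil3, which opposes Dbp and Tef at the same DNA sites, was higher by 0.59, and Arntl, the activator BMAL1, by 0.24 at a dim level of 6.93 to 7.20. At day 90 the clock list had medians of -0.14 and -0.05, and Dbp differed by -0.01 and +0.02. By limma 0 of the 17 passed over all genes at day 456.

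The remaining genes lower with 21% corn oil only were of several kinds. Upp2, a uridine phosphorylase of the liver, was at 11.75 and 11.55 with 5% corn oil and at 11.68 and 10.37 with 21%, and its other 3 probes gave -0.95 to -1.50 in the 21% pair. In the 5% pair those probes gave -0.26 to -0.34, past the bound of 0.25, so the gene is in this class by its brightest probe alone. Prkaa2, the alpha-2 catalytic subunit of AMP-activated protein kinase, was at 9.38 and 9.31, and at 9.83 and 8.59, with -0.71 in the 21% pair for a second probe. Clec2d, a C-type lectin, was at 10.91 and 10.96, and at 12.18 and 10.93, so that here the F1 array with 21% corn oil stood above the other 3. Acbd5, a peroxisomal acyl-CoA binding protein, was at 9.0 and 9.17, and at 9.22 and 8.01. Zfp36, which promotes the decay of inflammatory mRNAs, was at 9.40 and 9.29, and at 10.19 and 9.09. Beyond the 6 places of the naming rule came Pdcd4, Coq10b, Bhlhe40, Usp2 and Vegfa, at -1.03 to -1.08 in that pair. Other kept probes gave -0.36 and +0.03 for Coq10b and -0.31 for Vegfa, the endothelial growth factor gene.

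Immediate early genes (16 of 23 measured), the group to which Zfp36 was assigned, had medians of 0.04 and -0.12. In the 21% pair 12 of 16 were lower, among them Dusp1, a MAP kinase phosphatase (-0.66), and Fos (-0.50), and in the 5% pair 12 of 16 were higher, where 49.5% of all genes were lower in the 21% pair and 51.8% higher in the 5% pair. Other lists were split alike, such as DNA methylation and chromatin enzymes with 27 of 39 lower in the 21% pair and 27 of 39 higher in the 5% pair. Egr1 was the member lower by 0.3 in both pairs, at 9.75 and 9.27 with 5% corn oil and at 10.54 and 10.10 with 21%, where both 21% arrays were above both 5% arrays.

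Of the PPAR-alpha targets outside mitochondria (22 of 28 measured) 16 were higher in F3 with 21% corn oil (50.5% over all genes) and 9 with 5% (51.8%), with medians of +0.23 and -0.01. Those past 0.5 in the 21% pair were Fgf21, a fasting hormone of the liver (+0.70), Cyp4a31 (+0.64), the lipase inhibitor Angptl4 (+0.63), Pex11a, which divides peroxisomes (+0.63), and the acyl-CoA thioesterase Acot1 (+0.62). In the 5% pair they differed by -0.09 to +0.24, and Cyp4a14, another fatty acid hydroxylase, was higher there by 0.51. Of the lipid droplet list (18 of 23 measured) the medians were +0.18 and -0.05, and Plin4, a droplet coat protein, was at 7.45 in F1 and 8.46 in F3 with 21% corn oil, against 7.80 and 7.55 with 5%. Plin4 is also an adipose tissue marker. Ppara itself differed by +0.07 and -0.16, and mitochondrial fatty acid oxidation genes (18 of 22 measured) had medians of +0.09 in the 5% pair, with 16 of 18 higher, and +0.02 in the 21% pair, with 9 of 18 higher.

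Cyp7a1, the rate-limiting enzyme of bile acid synthesis, was lower in both pairs but unequally, at 11.78 and 11.41 with 5% corn oil and at 12.05 and 10.67 with 21%. It did not meet the rule for either class. Proteasome subunits (34 of 39 measured) had medians of +0.02 and +0.12, and cytosolic ribosomal proteins (51 of 77 measured) of +0.01 and +0.11. The +0.01 turned to -0.02 when all probes of a gene were averaged.

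**Figure D5:**
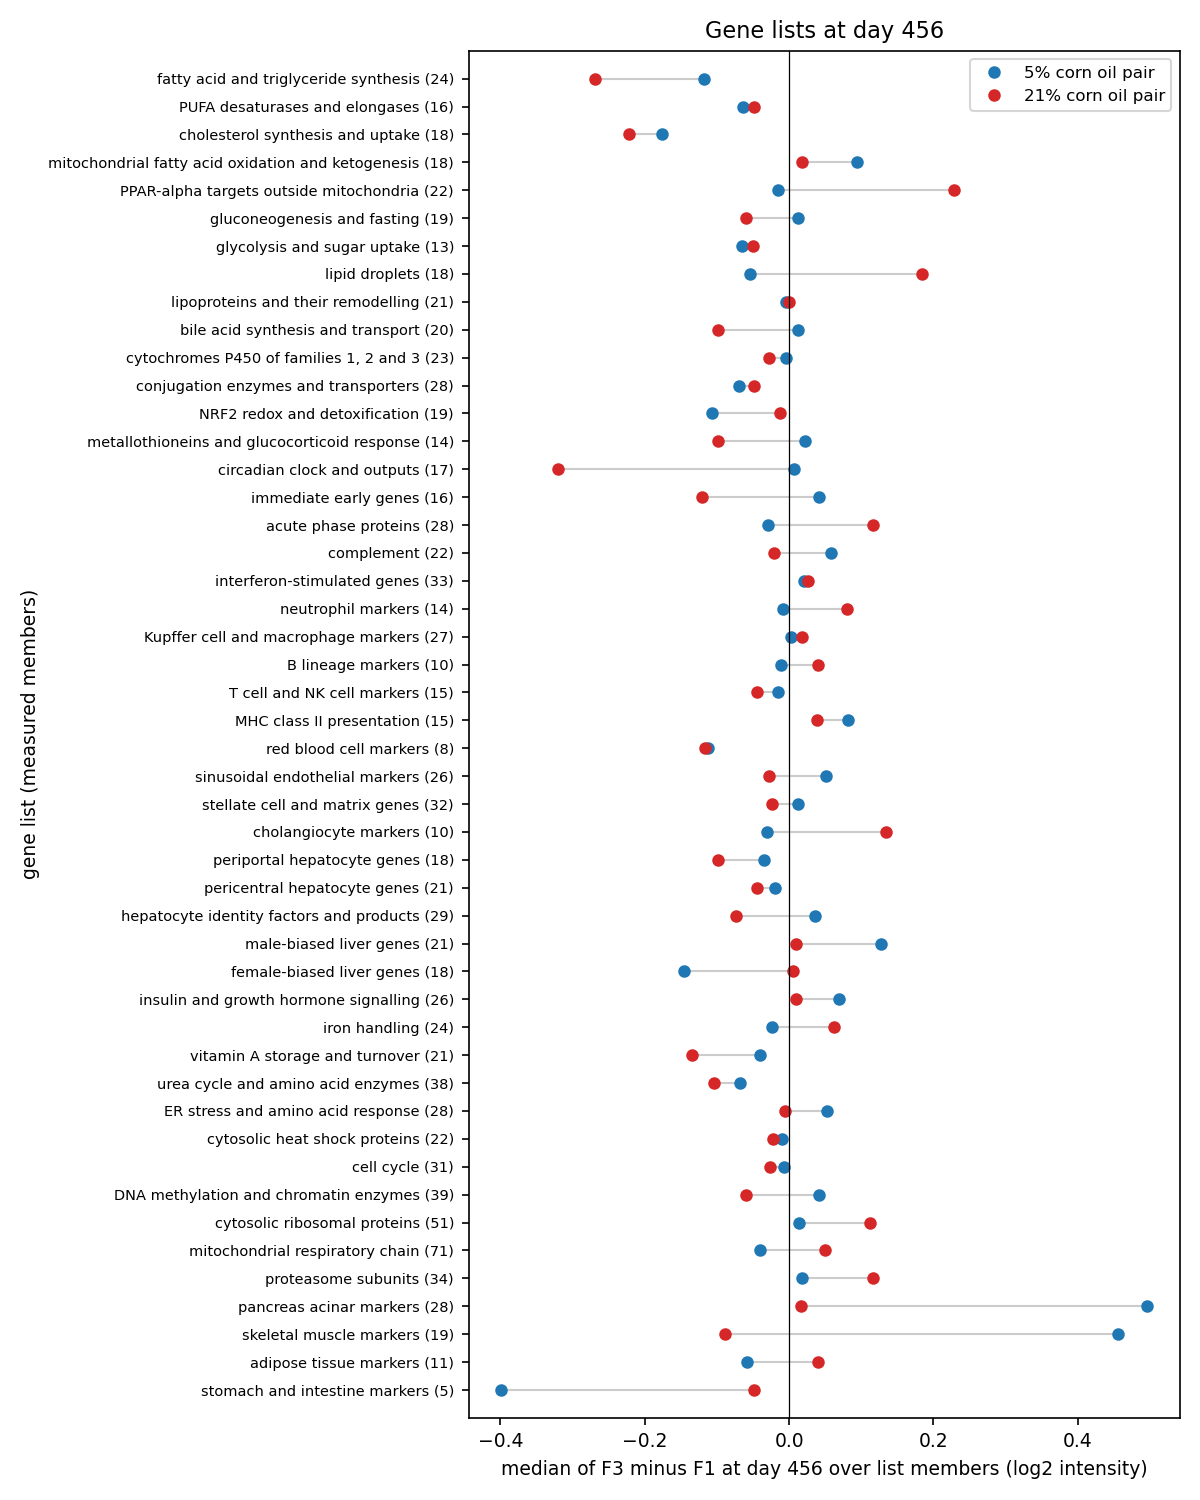
Median difference F3 minus F1 at day 456 over the measured members of each gene list with a measured member, in log2 intensity, with 1 point for the 5% and 1 for the 21% corn oil pair. Fatty acid and cholesterol synthesis lie below 0 in both pairs, the clock list stands at -0.32 in the 21% pair and 0.01 in the 5% pair, and the pancreas and muscle markers that passed the filter stand near +0.5 in the 5% pair.

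With 5% corn oil only, 8 genes were higher in F3 (0.0894% of genes) and 3 lower (0.0335%). All 8 higher genes were on the lists of pancreatic acinar or skeletal muscle markers, and of the 3 lower ones Tff2 and Gkn3 were on the list of stomach and intestine markers. Without those lists 0 genes were higher and 1 was lower. Just outside this class stood Cyp2b13 and Cyp17a1, both from a list of genes higher in female than in male liver. Cyp2b13 differed by +1.01 in the 5% pair and +0.27 in the 21% pair, and Cyp17a1 by -1.06 and +0.28. Their differences in the 21% pair lay just past the bound, so the counts do not mean that liver genes were unchanged in the 5% pair. Amy2a5, pancreatic amylase, was at 10.53 in F1 and 11.63 in F3 with 5% corn oil and at 7.33 in both 21% arrays. Tnni2, troponin I of fast muscle, was at 7.21 and 8.53, and at 7.36 and 7.16. Of 28 pancreas markers 13 were at least 0.5 higher in F3 in the 5% pair and of the 19 muscle markers 9 (0.481% over all genes). These are the markers that passed the filter, and 15 of the 28 pancreas markers were at or under its bound in both 21% arrays, so the counts describe members that passed largely through the arrays where they are high.

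Gkn3, a gastrokine of the stomach lining, was at 8.75 in F1 and 6.90 in F3 with 5% corn oil and at 6.85 and 6.87 with 21%. Tff2, a trefoil factor of gastric mucus also on the pancreas list, was at 11.002 and 8.59, and at 7.27 and 7.19. The third lower gene, Prap1, a proline-rich acidic protein known from uterus and intestine, was at 8.55 and 6.80, and at 6.86 and 6.92. In Gkn3 and Prap1 the F1 array with 5% corn oil stood alone, and the other 7 of all 8 arrays were under the filter bound, so both genes passed the filter through that array. Zg16, also a stomach and intestine marker, went the other way in the 5% pair. It was at 9.87 in F1 and 10.47 in F3 with 5% corn oil, and at 7.05 and 7.01 with 21%. The part of other tissue in these differences was not tested.

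In 6 genes (0.0671%) the pairs went opposite ways by at least 0.5. Gsta1, a glutathione transferase, was at 8.06 in F1 and 7.30 in F3 with 5% corn oil, and at 7.36 and 8.29 with 21%, and its near-identical relative Gsta2 was at 7.81 and 7.50, and at 7.54 and 7.75. A1bg, a plasma protein higher in female than in male mouse liver, was at 11.79 and 10.88, and at 12.00 and 12.64. Apoa4, an apolipoprotein that follows liver fat, was at 12.10 and 11.59, and at 11.85 and 12.77. Ckmt1, a mitochondrial creatine kinase, was at 7.61 and 7.01, and at 7.02 and 7.58. Hsd17b6, a steroid dehydrogenase, went the other way, at 8.63 and 9.15, and at 9.26 and 8.64. The generations overlapped in each of these 5 genes. The other gene was the muscle marker Myl1, at 7.35 and 9.004, and at 7.602 and 7.01.

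Whether the generation difference itself differed between the ages was tested over all 8 arrays with diet as a term. By limma 0 of 8945 genes passed (0%), 260 had an unadjusted p below 0.05, and the smallest adjusted p was 0.969. The 3 genes with the smallest p were Nusap1, a spindle protein, D17H6S56E-5 and Gsta2. Nusap1 was at 7.15 and 7.01 with 5% corn oil and at 7.14 and 6.99 with 21% at day 456, differences of -0.14 and -0.15, against +0.21 and +0.24 at day 90, so the difference between the ages was -0.37 ± 0.05 (SE, adjusted p = 0.969 by limma). D17H6S56E-5 lay under the filter bound, at 6.85 to 6.91, in every array other than the F3 arrays of day 90 (7.39 and 7.23), through which it passed the filter. Gsta2 differed by -0.31 and +0.21 at day 456 and by +1.27 and +1.07 at day 90, a difference between the ages of -1.22 ± 0.19 (SE, adjusted p = 0.969 by limma). Gsta1 showed the same order, with +1.95 and +1.94 at day 90. Without the F1 array of day 90 with 5% corn oil 12 genes passed, all with a higher difference at day 456. Among them Cyp4a12a, Elovl3 and Scara5 lay above the filter bound in the F1 array of day 90 with 21% corn oil alone, so their calls restate that array. Without the F1 array of day 456 with 21% corn oil, Gkn3 and Prap1 passed, again through their 1 high array.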

How the data were processed

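Liver RNA was measured on Illumina bead arrays. Per the values themselves, the deposited unit is linear intensity, with 1 value per probe and array. How the authors normalized the arrays was not stated in the labels. Array means (456.9) and medians (123.2 to 123.5) were nearly equal and the lowest value was 101.4, so arrays had been scaled together and background was not subtracted. Values were log2 transformed. Of 25697 probes 23978 carried 1 gene symbol in the platform annotation, 0 several and 1719 none. Kept probes had a mean above 6.95, which was the median over probes, and each gene was read from its brightest probe, which left 8945 genes. Each combination had 1 array, and diet was the term that matched the pairs.

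Differences were taken within each diet and tested with limma 3.58.1 (R 4.3.3, statmod 1.5.0), two-sided, with an intensity trend and Benjamini-Hochberg adjustment over all genes at 0.05. Figures were drawn with matplotlib 3.10.9. Genes were named by rule: up to 15 in each direction for both pairs, 6 for 1 diet, 4 for opposite pairs, ordered by size, and the 3 smallest p for the age test, with members of other-tissue lists described as lists. In a gene list 2 to 4 members were named by the size of their mean difference, and the text adds further members picked with their values in view. The members and lists were chosen with earlier results of these data known. Alternatives were other scalings, filters, probe rules, minimums, variance models, and leaving out each array. Counts without other-tissue lists were added after seeing the data.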

Additional observations from a re-analysis of the deposited data

Results flagged for a closer look

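In 5 genes the F3 and F1 arrays differed one way with 5% corn oil and the other way with 21%, which singled them out for a closer look. The difference between the diets was not tested, since each pair is 1 array against 1 array. Hsd17b6 differed by +0.51 with 5% and -0.62 with 21% corn oil. Gsta1 differed by -0.76 and +0.93, A1bg by -0.90 and +0.64, Ckmt1 by -0.60 and +0.56, and Apoa4 by -0.51 and +0.92. The muscle marker Myl1 is left out here as a transcript of another tissue.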

How the results depend on the processing

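No paired analysis was possible because every group has a single array and so no replicate numbers, beyond the matching by diet, which was a term of the fit. Of 243 values of 33 single genes under the alternatives, 219 kept their direction and size, 22 moved (12 of them with background subtraction) and 2 reversed: D17H6S56E-5 was at 0.0017 in the 5% pair alone and Gsta2 at 0.21 in the 21% pair alone. All 6 genes lower in both pairs kept the call under median and quantile scaling, background subtraction, no filter and a filter on day 456; Chrna4 was lost under a stricter filter and Acss2 when probes were averaged. With background subtraction 3 genes were higher and 14 lower in both pairs, 5 were lower with 5% corn oil only, 13 higher and 22 lower with 21% only, and 23 opposite. A minimum of 0.3 gave 10 higher, 37 lower and 28 opposite, and a minimum of 1 gave 0 lower and 0 opposite. A minimum of 0.7 in 1 pair gave 19 higher and 6 lower with 5% only, and 17 higher and 32 lower with 21% only. A bound of 0.1 on the other pair gave 4 higher with 5% only, and 3 higher and 6 lower with 21% only. The stricter filter left 2 higher and 1 lower with 5% only, leaving out other-tissue lists 0 and 1, and averaged probes 7 lower with 21% only. Subtracting background also moved list medians, to -0.87 (clock), -0.20 (immediate early) and -0.18 (red blood cells) in the 21% pair and to -0.15 (lipid droplets), 1.71 (muscle) and -1.20 (stomach) in the 5% pair, and averaged probes moved PPAR-alpha targets to 0.15 in the 21% pair. Limma passed 0 genes under every alternative other than leaving out an array, with a smallest adjusted p of 0.120 to 0.999 at day 456 and 0.598 to 0.9997 for the ages. Leaving out 1 of the 8 arrays gave 0 to 3 genes at day 456 (the 3, Gkn3, Prap1 and Pla2g4f, without F1 21% D456) and 0 to 12 for the ages (12 without F1 5% D90, 2 without F1 21% D456); the cause was not tested. Dim genes limit the comparison, since their signal stands little above background.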
